A study of Mus musculus with 4 samples.

Results

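The comparison described here set YFP-positive cells cultured with VEGF-C against YFP-negative cells cultured without it, in the 2 RNA sequencing libraries of the study that list the most genes above 0, 13528 and 13132. Genes were taken from the deposited FPKM table (fragments scaled by transcript length and by library size) if they reached 1 FPKM in either library. This left 12194 of 23334 genes, after 27 rows whose symbols had turned into calendar dates were set aside. Of these, 8616 reached 1 FPKM in both libraries. The threshold fell in a dense range of values. There were 110 genes whose higher value lay between 1.001 and 1.1 FPKM, with a median log2 ratio of 0.13, and 126 genes just outside, between 0.901 and 0.999 FPKM, with a median of 0.50.

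The cells came from C57BL/6 mice carrying Vegfr3::YFP, a reporter that labels cells using Vegfr3, the product of Flt4, with yellow fluorescent protein. They were sorted by fluorescence from 2 groups of 16 mice, cultured for 18 h, and the pellets of both groups were pooled within a condition. The YFP-positive library compared here received VEGF-C at 50 ng/ml and the YFP-negative library received none. The other 2 libraries, YFP-positive without VEGF-C and YFP-negative with VEGF-C at 50 ng/ml, form a second pair with 9669 and 9556 genes above 0, called the gene-poor pair below. All groups share the reporter genotype and the culture, and the YFP-negative cells are whatever the sort left without reporter signal. With 1 library in each group there is no replicate spread, and no test or p-value is given. Sorted population and VEGF-C change together between these libraries, so their parts in any difference cannot be told apart.

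The subgranular zone of the hippocampal dentate gyrus keeps neural stem cells in the adult. These radial glia-like cells share many genes with astrocytes, divide rarely, and give rise to intermediate progenitors, neuroblasts and granule neurons. VEGF-C is a secreted ligand of the receptor tyrosine kinase Vegfr3, best known from lymphatic vessels, and signals in part through the ERK kinases.

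The treated YFP-positive library held 60326308 implied fragments and the untreated YFP-negative library 16275369. Implied fragments are normalized counts divided by the smallest step of each library. The intervals below come from these fragments and cover counting error only, since amplified fragments are not independent molecules. Of the genes compared, 11625 (95.3%) rested on at least 100 fragments in the library where they were higher, and 47 rested on fewer than 10. An exact 0 in these files can be a failed estimate. Hnrnpa1, an RNA-binding protein gene that every cell uses, stood at 421 and 299 FPKM here but was listed at 0 in 1 library of the gene-poor pair. Values of 0 are therefore given as listed at 0, with no fold. Where a pair of values is given for a gene, the treated YFP-positive library comes before the untreated YFP-negative library. The phrase "higher without YFP" refers to the latter.

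On the scale log2((FPKM + 1) / (FPKM + 1)), 52.5% of the genes differed at least 2-fold between the libraries. There were 3264 genes at least 2-fold higher with YFP and VEGF-C (26.8%) and 3141 at least 2-fold lower (25.8%), while 5789 (47.5%) lay within 2-fold. The median log2 ratio was 0.05, with quartiles at -1.04 and 1.08, so the libraries differed about evenly in both directions. At 4-fold, 10.8% were higher and 11.1% lower. The share past 2-fold dropped with abundance, from 52.7% of genes with a mean between 5 and 10 FPKM to 46.2% between 10 and 20 FPKM and 23.3% at 200 FPKM or more. Shares at lower means are partly set by the filter, since a gene with a mean under 1 FPKM enters only through its higher library. The gene-poor pair had 77.3% of its 9164 genes past 2-fold, 39.7% higher with YFP and 37.6% lower. In that pair 22.3% of the genes were listed at 0 in either library, against 10.7% here. The 3264 higher genes here include 708 listed at 0 in the YFP-negative library. The 3141 lower genes include 593 listed at 0 in the treated YFP-positive library. Among the 10893 genes above 0 in both libraries, 2556 were higher and 2548 lower.

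**Figure D1:**
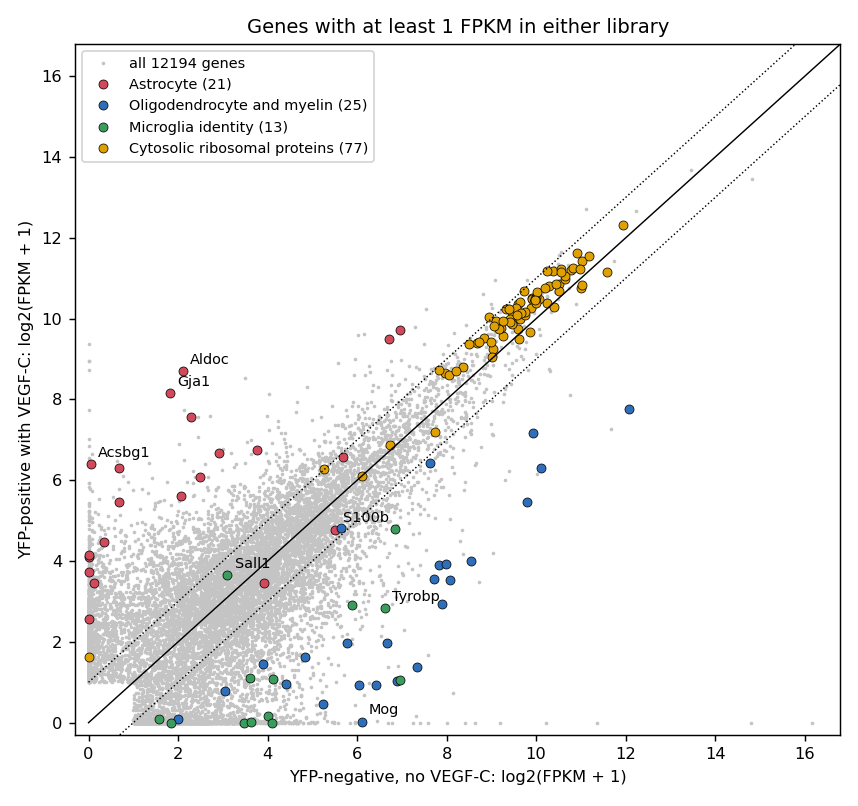
Log2(FPKM + 1) in the YFP-negative library (horizontal) against the treated YFP-positive library (vertical), 1 grey point per gene for 12194 genes, 1 library per axis; the solid line marks equal values, dotted lines mark 2-fold, and colours mark 4 gene lists. Astrocyte genes such as Aldoc and Gja1 lie far above the line, myelin and microglia genes such as Mog and Tyrobp below it, and cytosolic ribosomal protein genes close to it.

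The most abundant messages of both libraries were largely the same kind. The ferritin light chain gene Ftl1, part of the iron store, stood at 13211 FPKM with YFP and VEGF-C against 11319.5 FPKM in the YFP-negative library. The ferritin heavy chain gene Fth1 stood at 11289 and 29043 FPKM. Hmox1, the heme-degrading enzyme, came next in the treated YFP-positive library at 6731 FPKM and stood at 2202 FPKM in the other. Actin (Actb), ribosomal protein genes such as Rpl41 and the elongation factor gene Eef1a1 made up most of the remaining leaders. In the YFP-negative library the prostaglandin synthase gene Ptgds (3275 FPKM) was also among the 10 highest. Mir5136 and Snord96a headed that library by FPKM as well, at 73901 and 28588, but these values for very short transcripts rested on 2 and 3 fragments.

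The genes furthest apart fell into recognisable groups. Among genes above 0 in both libraries, the 12 with the highest ratios were Aldoc, Mmd2, Acsbg1, Gja1, Neurod1, Gpr37l1, Cbr3, Atp1b2, Fabp7, Lxn, Umps and Slc1a3. Several of them are known from astrocytes and radial glia. Aldoc (chromosome 11, 78322968 to 78327781 of GRCm38), the aldolase of brain glia, stood at 416 FPKM with YFP and VEGF-C against 3.3 FPKM without both, a 126-fold (95% interval 104 to 154) difference. The 12 with the lowest ratios were Lilrb4, Hebp1, Tgfbi, Mog, Bcas1, C1qb, Cela1, Fcer1g, Mag, Lpl, Pdlim2 and Ermn. They include genes of myelin (Mog, Mag, Bcas1, Ermn) and of myeloid cells (C1qb, Fcer1g, Lilrb4). Hebp1, a heme-binding protein gene, stood at 0.118 FPKM with YFP and VEGF-C, from 8 fragments, and 159 FPKM in the YFP-negative library. Lilrb4, an inhibitory receptor of myeloid cells, stood at 0.678 and 279.6 FPKM.

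Restricting the ranking to genes of at least 1 FPKM in both libraries kept Aldoc, Gja1, Fabp7 and Slc1a3 at the top and added Akap12, Angptl4, Gsta4, Prss56, Sox9, Cyp1a1, Ifitm2 and Inhba. Gsta4, a glutathione transferase gene, stood at 368 and 10.3 FPKM, a 35.7-fold (95% interval 30.7 to 41.7) difference. Inhba, the activin A subunit gene, stood at 133 and 4.42 FPKM. Cyp1a1, the classical target of the aryl hydrocarbon receptor, stood at 53.3 and 1.003 FPKM, in each case higher with YFP and VEGF-C. At the other end Bcas1, Cela1, Fcer1g, Mag, Lpl, Ndrg1, Cd14, Cldn11, Ccl3, Cxcl2, Gjc3 and Gjb1 were lowest. Lpl, the lipoprotein lipase gene, stood at 1.63 FPKM with YFP and VEGF-C against 119.8 FPKM in the YFP-negative library, 73.6-fold (95% interval 67.2 to 80.9) higher in the latter.

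Marker lists were used to set the label of each population beside its own messages. Astrocyte genes were higher with YFP and VEGF-C in 18 of the 21 measured and lower in none, with a median log2 ratio of 3.73 beside 0.05 over all genes. At 1 FPKM or more in both libraries, 9 of 12 were higher and none lower, with a median of 3.28. Gja1, the main astrocyte connexin, stood at 285 and 2.55 FPKM, a 112-fold (95% interval 95.9 to 132) difference. Slc1a3, the glial glutamate transporter, stood at 188 and 3.86 FPKM, a 48.8-fold (95% interval 43.8 to 54.6) difference. Atp1b2, the glial sodium pump subunit, stood at 78.3 and 0.594 FPKM. The structural filament gene Gfap was at 66.3 and 4.64 FPKM, and the water channel Aqp4 at 4.93 and 0.00963 FPKM. Glul, S100b and Kcnj10 were the members within 2-fold. S100b, a calcium-binding protein also made by oligodendrocytes, stood at 26.4 and 44.7 FPKM.

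Radial glia-like stem cell genes were higher in 12 of 16 measured members and lower in none, with a median of 2.16. Some passed the filter only through the library where they were higher. At 1 FPKM or more in both libraries, 8 of 12 were higher and none lower, with a median of 1.43. With a pseudocount of 5 FPKM, 8 of 16 were higher and the median was 1.02. Sox9, a transcription factor of astrocytes and stem cells, stood at 191 FPKM with YFP and VEGF-C against 5.58 FPKM in the YFP-negative library, a 34.2-fold (95% interval 31.2 to 37.5) difference. Fabp7, the brain lipid-binding protein of radial glia, stood at 214 and 3.36 FPKM. Vim, the intermediate filament vimentin, was the most abundant member at 1215 and 184 FPKM. Not every stem cell gene separated the libraries. Sox2 stood at 42.1 and 31.2 FPKM, and Nes, the filament nestin, at 43.2 and 82.3 FPKM, with the higher Nes value in the YFP-negative library. Lpar1, a lysophosphatidic acid receptor gene, likewise stood at 47.7 and 86 FPKM. The labels call the YFP-positive cells neural stem cells, and most markers on the stem cell list were higher in that library, as were those of astrocytes, which share many of them.

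Genes of the neuronal lineage were measured in both libraries. Intermediate progenitor and neuroblast genes were higher with YFP and VEGF-C in 7 of 14 and lower in 1 (median 0.99). Several passed the filter only through the library where they were higher. Among the 6 of at least 1 FPKM in both libraries 1 was higher and none lower, with a median of 0.89. Neurod1, which drives granule neuron maturation, stood at 88.2 and 0.55 FPKM, a 160.4-fold (95% interval 110.2 to 244) difference. Immature neuron genes had 8 of 17 members higher and 1 lower, namely Elavl2. Tubb3, the neuronal tubulin, stood at 242 and 24.2 FPKM, a log2 ratio of 3.27. Dcx, the microtubule protein of migrating neuroblasts, stood at 8.43 and 11.7 FPKM, and Stmn1 at 355 and 307 FPKM. Both lay within 2-fold.

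Mature neuron genes were split, with 8 of 15 higher and 5 lower with YFP and VEGF-C. Their median of 1.33 turned to -0.05 when only genes of at least 1 FPKM in both libraries were kept. Gria2, an AMPA glutamate receptor subunit, stood at 21 FPKM with YFP and VEGF-C against 0.149 FPKM in the YFP-negative library. Rbfox3, which encodes the neuronal nuclear antigen NeuN, stood at 5.46 and 0.15 FPKM. Eno2, the neuronal enolase, went the other way at 16.7 and 43.2 FPKM, and Snap25, a synaptic vesicle fusion protein, stood at 20.4 and 21.1 FPKM. The vesicular glutamate transporter gene Slc17a7, which marks forebrain glutamatergic neurons, was listed at 0 in the YFP-negative library and at or near 0 in the other too (0.00478 FPKM). The labels call the YFP-negative cells neurons. That library held neuronal messages, with summed levels of 115 FPKM for mature and 857 FPKM for immature neuron genes, beside 146 and 1944 FPKM with YFP and VEGF-C. Its oligodendrocyte genes summed to 9875 FPKM, so the label does not cover what the library held, and it is named here by its sort alone.

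Oligodendrocyte and myelin genes were lower with YFP and VEGF-C in 24 of the 25 measured and higher in none, with a median of -4.17. Their summed level was 679 FPKM with YFP and VEGF-C against 9875 FPKM in the YFP-negative library. Cnp, an enzyme of the myelin sheath, stood at 77.9 and 1110.0 FPKM, 14.3-fold (95% interval 14 to 14.5) higher without YFP. Mog, a protein of the outer myelin surface, stood at 0.0172 FPKM, from 2 fragments, and 67.9 FPKM. Gsn, an actin-severing protein, was the member within 2-fold, at 27.2 and 49.1 FPKM. Myelin messages were not absent from the YFP-positive library, where Mbp, a main protein of compact myelin, stood at 143 FPKM, above Gfap. In bulk RNA, fewer cells of a type and less RNA per cell cannot be told apart.

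Precursors of oligodendrocytes were less clearly separated. Of 9 measured precursor genes, 2 were higher and 5 lower with YFP and VEGF-C, and the median of -1.40 became -0.41 with a pseudocount of 5 FPKM. Sox10, the transcription factor of the whole lineage, stood at 20.1 and 115 FPKM, and Olig2 at 0.0993 and 18.4 FPKM. Cacng4, an AMPA receptor auxiliary subunit, was on the opposite side at 2.8 and 0.0581 FPKM.

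The connexins, which form gap junction channels, had 3 of 7 members higher and 3 lower. Their median of 0.76 turned to -1.89 among the 4 of at least 1 FPKM in both libraries. Gja1, Gjb6 and Gjb2 had the higher values with YFP and VEGF-C. Gjb6, the second astrocyte connexin, stood at 16.1 FPKM and Gjb2 at 3.53 FPKM. Both were listed at 0 in the YFP-negative library, which can be a failed estimate. The oligodendrocyte connexins Gjb1 and Gjc3 were lower. Gjb1 stood at 15 and 372 FPKM, 24.9-fold (95% interval 23.6 to 26.3) higher without YFP, and Gjc3 at 2.93 and 100.4 FPKM. Gjc1 lay within 2-fold at 7.89 and 4.24 FPKM.

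**Figure D2:**
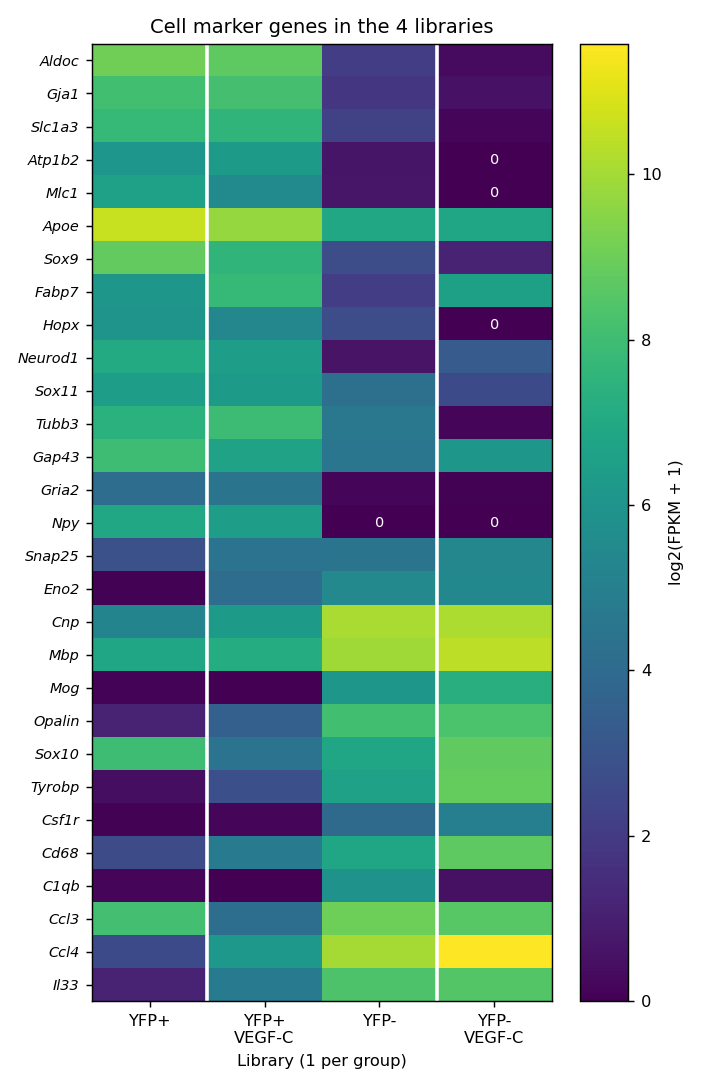
Log2(FPKM + 1), as colour, of marker genes (rows) in the 4 libraries (columns, 1 per group); a white 0 marks a gene listed at 0, and the white lines set off the pair described here in the 2 middle columns. Astrocyte genes from Aldoc to Apoe are brighter with YFP and VEGF-C, and myelin genes from Cnp to Opalin are brighter in the YFP-negative library.

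Microglia genes were lower with YFP and VEGF-C in 12 of the 13 measured and higher in none, with a median of -3.05. The list summed to 54.6 FPKM with YFP and VEGF-C against 484 FPKM in the YFP-negative library. Tyrobp, a signalling adaptor of myeloid receptors, stood at 6.12 and 98 FPKM, 16-fold (95% interval 13.6 to 18.9) higher without YFP. Csf1r, the survival receptor of microglia, stood at 0.122 and 15.1 FPKM. Trem2, Aif1 and Itgam were listed at 0 with YFP and VEGF-C and stood at 16.2, 10.1 and 2.6 FPKM in the YFP-negative library. Sall1, a transcription factor of microglia that other neural cells also use, was the member within 2-fold at 11.7 and 7.58 FPKM. Complement genes were on the same side in 5 of 6 (median -4.16). Of the 2 of at least 1 FPKM in both libraries 1 was lower, with a median of -0.96. C1qb, a chain of the complement initiator C1q, stood at 0.0148 FPKM, from 1 fragment, and 61.2 FPKM. In the gene-poor pair 2 of 3 measured complement genes were lower with YFP. C1qb stood there at 0.157 FPKM with YFP and 0.437 FPKM without.

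Secreted inflammatory signals were mostly higher without YFP. Of 20 measured chemokine and interleukin genes, 15 were lower with YFP and VEGF-C and 2 higher, with a median of -3.37. Ccl4, a ligand that attracts immune cells to inflamed tissue, stood at 70.1 and 1029.6 FPKM, 14.7-fold (95% interval 14.1 to 15.3) higher without YFP. Ccl3, its close relative, stood at 17.3 and 522 FPKM, and Ccl5 at 63.8 and 632 FPKM. Il33, an alarmin that oligodendrocytes also make, stood at 26.5 and 323 FPKM. Il1b, Il1a and Il6 were listed at 0 with YFP and VEGF-C and stood at 16.7, 9.86 and 8.56 FPKM in the YFP-negative library. The members higher with YFP and VEGF-C were Cxcl14 (12.5 and 0.0285 FPKM) and Cx3cl1 (1.4 and 0.159 FPKM). Microglia markers moved with these genes between the libraries, as the summed levels above show, and their part in the chemokine difference was not tested.

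Targets of the inflammatory transcription factor NF-kB were less one-sided, with 8 of 16 lower and 3 higher. Their median of -1.06 became -0.51 with a pseudocount of 5 FPKM. Cd14, a lipopolysaccharide co-receptor, stood at 10.2 and 420.2 FPKM, 41.2-fold (95% interval 38.7 to 44) higher without YFP. Nfkbia, which encodes the inhibitor of the factor, lay within 2-fold at 71.7 and 98.2 FPKM. Relb, a subunit of the factor, and Ier3 were higher with YFP and VEGF-C, Relb at 9.81 and 2.98 FPKM and Ier3 at 156 and 63.8 FPKM. Among genes of antigen presentation, 8 of 12 were lower and 1 higher, the latter being the peptide transporter gene Tap2. Cd74, the class II invariant chain, stood at 3.42 and 92.1 FPKM. Of 15 interferon-stimulated genes, 3 were higher and 6 lower, beside 26.8% and 25.8% over all genes.

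The promoters of a pair of neighbouring chemokine genes are shown because a short NF-kB letter pattern occurs in both. Cxcl1, a neutrophil attractant, stood at 10.1 and 79.8 FPKM, 7.91-fold (95% interval 7.17 to 8.73) higher without YFP. Cxcl2, which acts on the same receptor, stood at 3.92 and 132 FPKM, 33.6-fold (95% interval 29.6 to 38.2) higher without YFP. The pattern searched was GGG, any 2 bases and TTTCC on both strands, in RefSeq windows of 250 bases before to 50 after the transcript start (GRCm38.p6), and capitals mark each match. It occurred in 1.63% of 32851 promoters in the table, in 2.07% of the 9066 compared genes that have 1 or more promoters there, and in 5 of 19 chemokine and interleukin genes with a promoter. Among compared genes at least 2-fold lower with YFP and VEGF-C the share was 2.37%, and among those at least 2-fold higher 1.73%. A match describes the letters of the window and is not evidence of a binding site. Cxcl1 is read from chr5:90890995-90891294, plus strand and Cxcl2 from chr5:90903649-90903948, plus strand, each 5′ to 3′ along the gene.
Cxcl1: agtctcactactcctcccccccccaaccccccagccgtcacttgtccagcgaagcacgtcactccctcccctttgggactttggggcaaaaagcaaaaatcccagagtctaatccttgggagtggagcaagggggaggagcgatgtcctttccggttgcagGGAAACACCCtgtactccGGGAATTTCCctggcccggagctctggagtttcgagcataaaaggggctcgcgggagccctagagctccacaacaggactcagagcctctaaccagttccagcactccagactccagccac
Cxcl2: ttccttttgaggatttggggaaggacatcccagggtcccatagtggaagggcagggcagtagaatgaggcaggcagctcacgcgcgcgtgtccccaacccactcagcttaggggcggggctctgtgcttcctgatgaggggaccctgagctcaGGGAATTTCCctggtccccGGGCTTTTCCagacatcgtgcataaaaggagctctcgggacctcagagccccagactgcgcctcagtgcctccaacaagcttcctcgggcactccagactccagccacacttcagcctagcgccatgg

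**Figure D3:**
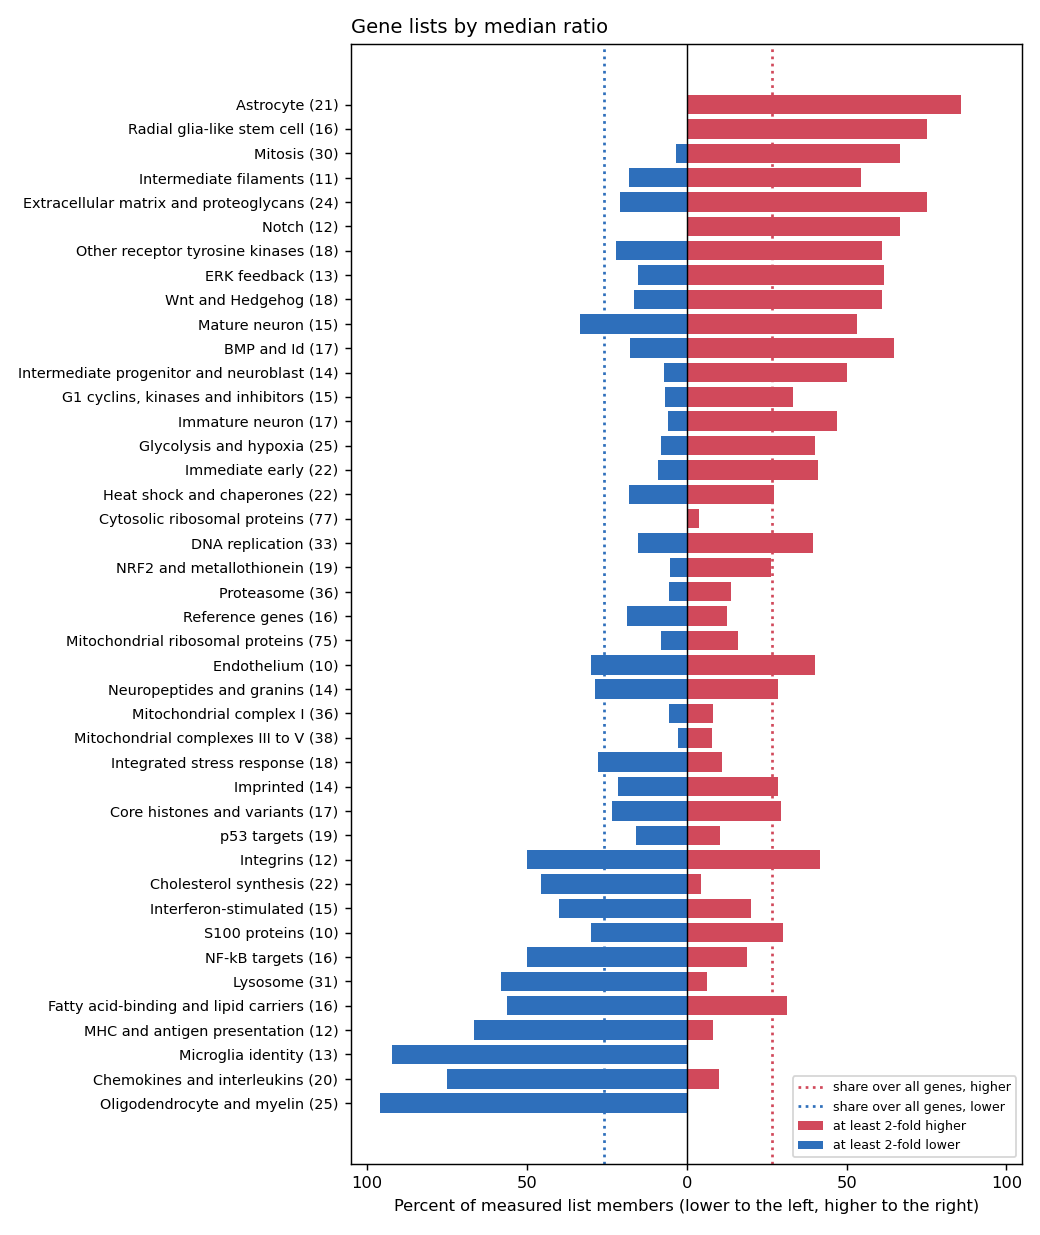
Percent of measured members at least 2-fold higher with YFP and VEGF-C (red, right) and at least 2-fold lower (blue, left) for gene lists with at least 10 measured members (number in brackets), ordered by median ratio; dotted lines mark the shares over all genes, 26.8% and 25.8%, and each group is 1 library. Astrocyte genes, with 18 of 21 higher, stand at the top and oligodendrocyte genes, with 24 of 25 lower, at the bottom.

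Vessel genes were mostly low in both libraries, and blood genes were mostly higher without YFP. Endothelial genes were higher in 4 of 10 measured cases and lower in 3 (median 0.03, and -0.84 over the 5 of at least 1 FPKM in both libraries). The shares over all genes were 26.8% higher and 25.8% lower. The tight junction gene Cldn5, which defines brain endothelium, stood at 0.0849 FPKM with YFP and VEGF-C against 3.38 FPKM in the YFP-negative library, and the adhesion gene Pecam1 at 1.25 and 3.04 FPKM. These examples had the higher value without YFP, while Kdr, given below, was among the 4 members higher with YFP and VEGF-C. Mural cell and fibroblast genes were lower in 5 of 6, and their median of -1.65 became -0.53 with a pseudocount of 5 FPKM. Every measured gene of that list passed the filter through 1 library alone. Blood genes were lower in 7 of 9, and their median of -2.37 became -0.95 with a pseudocount of 5 FPKM. Only 3 of the 9 reached 1 FPKM in both libraries, and 2 of those were lower. Hemoglobin alpha was listed as Hba-a1 at 21.5 and 313 FPKM and as Hba-a2 at 33.8 and 26.4 FPKM, and the split between these near-identical copies is uncertain.

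The receptor behind the sort was detected with YFP and VEGF-C. Flt4 (Vegfr3) stood at 2.01 FPKM (95% interval 1.88 to 2.15) in that library and at 0.0584 FPKM (95% interval 0.0235 to 0.12) in the YFP-negative library, a 34.5-fold (95% interval 16.7 to 86) difference. In the gene-poor pair the same gene was listed at 0 in untreated YFP-positive cells and stood at 0.348 FPKM in treated YFP-negative cells, which gives no direction because a listed 0 can be a failed estimate. Kdr (Vegfr2), the main VEGF-A receptor, stood at 1.02 FPKM with YFP and VEGF-C and was listed at 0 in the YFP-negative library. The neuropilin co-receptors differed from each other. Nrp1 stood at 6.59 and 5.16 FPKM, within 2-fold, and Nrp2, which binds VEGF-C, at 2.54 and 10.8 FPKM. Flt1 (Vegfr1) was under 1 FPKM in both. Among ligands Vegfa stood at 10.9 and 10.8 FPKM, Vegfb at 13 and 4.67 FPKM and Pgf at 1.11 and 2.45 FPKM. Vegfc, the gene of the added ligand, was listed at 0 in both libraries.

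Other receptor tyrosine kinases leaned towards YFP with VEGF-C, with 11 of 18 higher and 4 lower. Their median of 1.52 became 0.58 with a pseudocount of 5 FPKM. Only 4 reached 1 FPKM in both libraries, 3 of them higher and none lower. The others passed the filter through 1 library alone. Fgfr1, a fibroblast growth factor receptor, stood at 66.4 and 13.3 FPKM, a 5.001-fold (95% interval 4.73 to 5.29) difference. Axl, a receptor that astrocytes use for clearing debris, stood at 43 and 1.94 FPKM, a 22.1-fold (95% interval 19.2 to 25.6) difference. Ntrk2, the BDNF receptor, stood at 19.7 and 0.865 FPKM.

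Feedback genes of the ERK pathway, which ERK activity turns on, were higher in 8 of 13 measured cases and lower in 2 (median 1.46). Spry2, an inhibitor of receptor tyrosine kinase signalling, was the most abundant by far at 782 FPKM with YFP and VEGF-C against 70.3 FPKM in the YFP-negative library, an 11.1-fold (95% interval 10.7 to 11.5) difference. Dusp6, an ERK phosphatase, stood at 55.9 and 6.39 FPKM, an 8.74-fold (95% interval 7.87 to 9.74) difference, and Spry4 at 18.2 and 1.31 FPKM. Dusp7 and the ERK-responsive factor Etv1 were lower, at 7.68 and 19.5 FPKM and at 9.15 and 27 FPKM. In the gene-poor pair, where VEGF-C lies on the YFP-negative side, Spry2 stood at 1534 FPKM with YFP and 124 FPKM without, and Dusp6 at 23.4 and 0.3 FPKM. Both genes were thus higher with YFP in each pair. Dusp4 was not: its log2 ratio was 2.18 here and -6.12 in the gene-poor pair.

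Immediate early genes, which respond within minutes to stimulation, were higher in 9 of 22 and lower in 2. The median turned, over those averaging 20 FPKM or more, from 0.64 to -0.05. Myc, the growth-promoting factor, stood at 315 and 87.1 FPKM, and Fosl1 at 56.7 and 8.44 FPKM. Fos stood at 144 and 149 FPKM and Egr1 at 131 and 187 FPKM, both within 2-fold. Egr2 and the synaptic gene Arc were the lower members, Egr2 at 12.6 and 77.4 FPKM and Arc at 38.8 and 102 FPKM.

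Of 30 measured genes of mitosis, 20 were higher and 1 lower (median 1.88). Most were low in level, and many passed the filter only through the library where they were higher. Among the 14 of at least 1 FPKM in both libraries 5 were higher and none lower, with a median of 0.50, and a pseudocount of 5 FPKM gave 0.78 over all 30. Plk1, a kinase of spindle assembly, stood at 14.1 FPKM with YFP and VEGF-C against 0.0233 FPKM, from 1 fragment, in the YFP-negative library. Cdc20, an activator of the anaphase-promoting complex, stood at 7.07 and 0.176 FPKM, a 40.2-fold (95% interval 18.4 to 109.8) difference. Kif4, a chromosome-bound kinesin, stood at 3.55 and 0.0104 FPKM. The proliferation antigen Mki67 stood at 3.06 and 0.172 FPKM, and Cdk1, the mitotic kinase, stood at 2.92 FPKM with YFP and VEGF-C and was listed at 0 in the YFP-negative library. Kif11, the spindle motor Eg5, was the lower member at 0.251 and 3.04 FPKM. Aurka, Mad2l1, Cenpf and Anln were also higher in the YFP-negative library, within 2-fold.

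DNA replication genes had 13 of 33 members higher and 5 lower (median 0.46), and the median turned to -0.20 over the 7 with a mean of at least 20 FPKM. Genes of the G1 phase had 5 of 15 higher and 1 lower. Over all compared genes 26.8% were higher and 25.8% lower. Uhrf1, which maintains DNA methylation at the fork, stood at 18.5 and 0.161 FPKM, a 115-fold (95% interval 64 to 229.9) difference. Mcm7, a subunit of the replicative helicase, stood at 54.3 and 17.6 FPKM, a 3.08-fold (95% interval 2.87 to 3.32) difference. Other helicase subunits differed among themselves. Mcm6 was higher at 26.6 and 5.96 FPKM, Mcm5 within 2-fold at 16 and 17 FPKM, and Mcm4 lower at 7.99 and 17.7 FPKM. In addition, the sliding clamp Pcna was higher in the YFP-negative library at 56.2 and 146 FPKM. Ccnd2, a cyclin of the G1 phase, stood at 104 and 6.38 FPKM, a 16.3-fold (95% interval 15.1 to 17.5) difference. Cdkn1a, the inhibitor p21, was abundant in both libraries at 612 and 867 FPKM.

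The promoters of 3 mitosis and 2 replication genes are shown because these groups are known to carry different letter patterns near their start sites. The patterns searched on both strands were TTTGAA, known as the cell cycle homology region or CHR, and CCAAT for mitosis, and TTTGGCGC, TTTCGCGC, TTTCCCGC and TTTGCCGC, which E2F factors bind, for replication. TTTGAA occurred in 24 of 32 mitosis genes with a promoter in the RefSeq table (75%), beside 17.9% of all 32851 promoters and 13.8% of the compared genes. Together with CCAAT it occurred in 21 of 32, beside 6.95% of all promoters. The E2F patterns occurred in 12 of 29 replication genes, beside 2.26% of all promoters and 4.75% of the compared genes. Among the compared genes TTTGAA occurred in 14.9% of those at least 2-fold higher, 13.7% of those at least 2-fold lower and 13.3% of those within 2-fold. In the windows below, capitals mark TTTGAA and CCAAT, or their reverse complements, in Plk1 (chr7:122159185-122159484, plus strand), Cdc20 (chr4:118437294-118437593, minus strand) and Kif4 (chrX:100625815-100626114, plus strand). Uhrf1 and Mcm7 have 2 windows each in the RefSeq table, and the first that holds a match is shown. In Uhrf1 (chr17:56304063-56304362, plus strand) and Mcm7 (chr5:138171834-138172133, minus strand) capitals mark the E2F patterns. All are from GRCm38.p6 and run 5′ to 3′ along the gene.
Plk1: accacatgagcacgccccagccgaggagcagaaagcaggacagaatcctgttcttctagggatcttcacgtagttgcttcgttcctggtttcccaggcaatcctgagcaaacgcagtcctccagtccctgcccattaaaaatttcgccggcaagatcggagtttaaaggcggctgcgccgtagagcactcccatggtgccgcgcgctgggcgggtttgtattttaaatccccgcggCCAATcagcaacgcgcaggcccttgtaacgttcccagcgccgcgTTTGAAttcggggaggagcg
Cdc20: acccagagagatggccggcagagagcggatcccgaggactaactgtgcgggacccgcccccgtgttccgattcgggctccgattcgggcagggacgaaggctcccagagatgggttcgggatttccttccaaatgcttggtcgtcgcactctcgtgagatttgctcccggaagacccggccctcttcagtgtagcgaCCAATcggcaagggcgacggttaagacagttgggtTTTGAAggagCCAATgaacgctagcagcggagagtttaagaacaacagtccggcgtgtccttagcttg
Kif4: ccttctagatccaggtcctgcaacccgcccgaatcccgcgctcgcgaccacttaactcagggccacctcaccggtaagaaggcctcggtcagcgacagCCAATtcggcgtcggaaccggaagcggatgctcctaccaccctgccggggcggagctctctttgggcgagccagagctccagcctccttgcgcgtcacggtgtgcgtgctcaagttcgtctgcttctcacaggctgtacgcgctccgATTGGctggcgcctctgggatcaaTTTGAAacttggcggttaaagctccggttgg
Uhrf1: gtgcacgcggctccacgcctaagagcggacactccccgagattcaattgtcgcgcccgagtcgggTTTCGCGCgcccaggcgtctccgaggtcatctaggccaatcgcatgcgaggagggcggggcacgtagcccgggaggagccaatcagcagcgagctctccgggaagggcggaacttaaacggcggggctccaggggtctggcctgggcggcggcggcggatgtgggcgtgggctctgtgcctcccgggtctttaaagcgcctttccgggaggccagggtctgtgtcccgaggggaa
Mcm7: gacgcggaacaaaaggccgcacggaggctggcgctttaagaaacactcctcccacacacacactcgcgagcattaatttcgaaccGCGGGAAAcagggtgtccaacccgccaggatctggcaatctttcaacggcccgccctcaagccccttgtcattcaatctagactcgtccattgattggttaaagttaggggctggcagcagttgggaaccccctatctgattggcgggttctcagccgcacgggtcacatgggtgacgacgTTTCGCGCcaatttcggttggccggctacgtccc

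**Figure D4:**
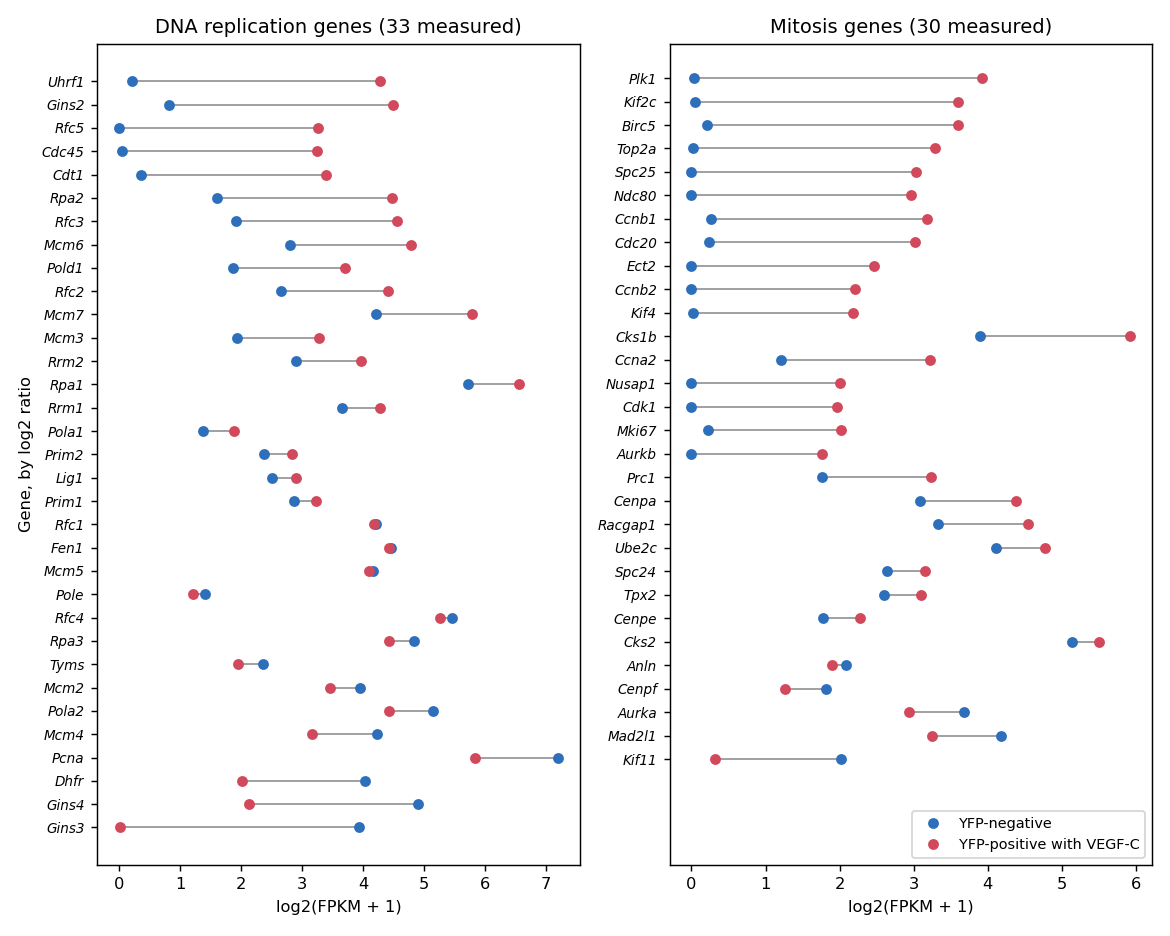
Log2(FPKM + 1) of each measured DNA replication gene (left) and mitosis gene (right) in the YFP-negative library (blue) and the treated YFP-positive library (red), 1 library per group, ordered by log2 ratio. Of the mitosis genes 20 of 30 are at least 2-fold higher in the latter and Kif11 is lower, while replication genes extend in both directions.

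Signalling pathways known from neural stem cell maintenance leaned towards the treated YFP-positive library. The Notch list had 8 of 12 genes higher and none lower, the BMP and Id list 11 of 17 higher and 3 lower, and the Wnt and Hedgehog list 11 of 18 higher and 3 lower. Hes1, a Notch target that represses neuronal genes, stood at 28.5 and 0.923 FPKM. Id1 and Id3, inhibitors of differentiation that BMP signals turn on, stood at 193 and 14.9 FPKM and at 386 and 59.7 FPKM. The Wnt effector Lef1 stood at 14.3 and 0.0443 FPKM. The ligand gene Bmp2 was on the other side, at 1.15 and 29.8 FPKM. With a pseudocount of 5 FPKM the medians of 1.73, 1.28 and 1.39 became 0.87, 0.76 and 0.53. Some members passed the filter only through the library where they were higher. Among those of at least 1 FPKM in both libraries, 6 of 9, 6 of 11 and 1 of 4 were higher. In the same order 0, 2 and 0 were lower, with medians of 1.71, 1.02 and 0.52.

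Extracellular matrix and proteoglycan genes were higher in 18 of 24 measured cases and lower in 5 (median 1.81, and 0.97 with a pseudocount of 5 FPKM). Only 12 reached 1 FPKM in both libraries, with 9 higher, 2 lower and a median of 1.46. Sdc4, a cell-surface heparan sulfate proteoglycan, stood at 514 and 61.2 FPKM, an 8.4-fold (95% interval 8.1 to 8.72) difference. Sparc, a matrix protein that astrocytes secrete, stood at 314 and 28.5 FPKM, and Ptprz1, a receptor phosphatase that is also a proteoglycan, at 21 and 1.87 FPKM. Hapln2, a link protein of myelinated nodes, was lower at 0.0351 and 10.1 FPKM. Integrins, the receptors for matrix, were split with 5 higher and 6 lower of 12, beside 26.8% and 25.8% over all genes. Itgb2, the leukocyte integrin chain, stood at 0.842 and 24.8 FPKM.

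Fatty acid-binding and lipid carrier genes had 5 of 16 members higher and 9 lower, and their median of -1.42 became -0.74 with a pseudocount of 5 FPKM. Apoe and Clu, apolipoproteins of astrocytes, stood at 846 and 123 FPKM and at 717 and 103 FPKM. Ptgds, Trf and Apod, made by oligodendrocytes or meninges, were higher in the YFP-negative library. Ptgds stood at 153 and 3275 FPKM, the iron carrier Trf at 43 and 888 FPKM, and Apod at 31.7 and 269 FPKM. Cholesterol synthesis genes, which myelinating cells use heavily, were lower with YFP and VEGF-C in 10 of 22 against 1 higher (median -0.75). Hmgcs1, an early enzyme of that pathway, stood at 140.1 and 517 FPKM, 3.69-fold (95% interval 3.64 to 3.75) higher without YFP. Lysosomal genes were lower in 18 of 31, and the protease gene Ctsb stood at 112 and 432 FPKM. Myelin and microglia markers differed in the same direction as these 2 lists, and their part in them was not tested.

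Genes of protein synthesis, protein turnover and respiration mostly lay within 2-fold. Of 77 cytosolic ribosomal protein genes 3 were at least 2-fold higher with YFP and VEGF-C and none lower, with a median of 0.50. Of 36 complex I genes 3 were higher and 2 lower, and of 36 proteasome genes 5 were higher and 2 lower. Most members of these lists were abundant, and the share of all genes past 2-fold dropped with abundance. It was 52.5% over all genes, 29.7% at a mean between 100 and 200 FPKM, and 23.3% at 200 FPKM or more. These lists were not compared with genes of equal abundance. Glycolysis and hypoxia genes were more spread and had 10 of 25 members higher and 2 lower, the glucose transporter Slc2a1 and Bnip3. Stress genes were high in both libraries. Ddit3, the integrated stress response factor CHOP, stood at 434 and 1259 FPKM, and Hspa5, the chaperone of the endoplasmic reticulum, at 799.6 and 286 FPKM. Of 19 targets of p53, 2 were higher and 3 lower, beside 26.8% and 25.8% over all genes.

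Sex-linked genes also differed. Xist, the RNA that coats the inactive X chromosome of female cells, stood at 7.01 FPKM with YFP and VEGF-C against 0.00392 FPKM in the YFP-negative library. The Y-linked translation factor gene Eif2s3y was listed at 0 with YFP and VEGF-C and stood at 56.2 FPKM in the YFP-negative library, and Ddx3y stood at 0.7 and 36.2 FPKM. Kdm5d stood at 0.0025 and 5.4 FPKM and Uty was listed at 0 and at 3.002 FPKM. All 4 Y-linked genes compared thus had the higher value without YFP. For Eif2s3y and Uty it stood against a listed 0, which can be a failed estimate. In the gene-poor pair Eif2s3y stood at 0.527 FPKM with YFP and 192 FPKM without. Xist stood there at 15.3 FPKM with YFP and 0.0763 FPKM without, and Ddx3y went the other way, at 18.7 and 6.5 FPKM. By the labels' account each library pools material from both groups of mice. The labels used here do not give the sex of the mice. Whether the pools differed in it, and what part that had in the other differences, was not tested. Of the X-linked genes, Kdm6a stood at 14.6 and 2.35 FPKM and Eif2s3x at 75.8 and 60.5 FPKM.

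The gene-poor pair has the same contrast of populations with VEGF-C on the other side, shares no library with the pair described here, and by the labels' account comes from the same groups of mice. It is therefore not treated as an independent repeat. For 8589 genes measured in both pairs, 2012 were at least 2-fold higher with YFP and VEGF-C. Of these, 1224 (60.8%) were also at least 2-fold higher with YFP in the gene-poor pair and 477 (23.7%) were lower there. Of 1852 lower genes, 1108 (59.8%) were lower in both and 433 (23.4%) were higher in the other. Over all 8589 genes, 39.3% were higher and 37.0% lower with YFP in the gene-poor pair. The shared genes made up 36.3% of the 3376 genes higher in the gene-poor pair and 34.8% of its 3180 lower genes. Among genes above 0 in all 4 libraries the shared percentages were 54.8% and 55.3%.

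The share on the same side was larger, up to a point, among genes far apart here. Of 81 genes with a log2 ratio of 4 or more, 82.7% were also higher with YFP in the gene-poor pair, and of 95 with -4 or less, 84.2% were lower. On the opposite side there were 12.3% and 9.5%. Over these 176 genes together, 43.2% were higher and 51.1% lower with YFP in the gene-poor pair, so more of them were past 2-fold there than over all genes. At 5 or more either way the same-side shares were 77.4% of 31 and 83.3% of 30 genes, and at 6 or more 7 of 7 and 5 of 8. Ranked by the smaller of the 2 ratios, the leading genes higher with YFP in both pairs were Aldoc, Mmd2, Gja1, Atp1b2, Slc1a3, Lhx2, Akap12, Angptl4, Mgst3 and Tinagl1. Lhx2, a cortical patterning factor, stood at 42.7 FPKM here and 36.8 FPKM with YFP in the gene-poor pair. In the YFP-negative libraries it was listed at 0 here and stood at 0.0619 FPKM there. The leading genes higher without YFP in both pairs were Hebp1, Tgfbi, Mog, Cela1, Eif2s3y, Lpl, Pdlim2, Bcas1, Mag and Adam8. Astrocyte genes were higher with YFP in 16 of 19 measured in the gene-poor pair, and oligodendrocyte genes lower in 22 of 24. For mitosis genes the gene-poor pair had 10 higher and 6 lower of 17, with a median of 2.29. Fabp7 was near even there, at 68.2 FPKM with YFP and 95.8 FPKM without.

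**Figure D5:**
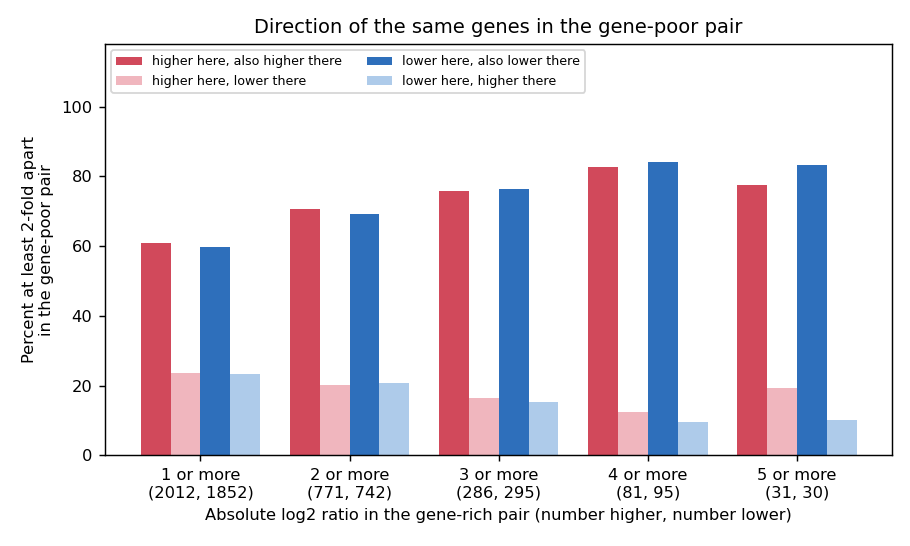
Percent of genes higher (red) or lower (blue) with YFP and VEGF-C that were at least 2-fold apart in the gene-poor pair on the same side (dark) or the opposite side (light), for growing absolute log2 ratios here; the numbers of higher and lower genes stand under each group of bars, with 1 library per group. The same-side share is 60.8% and 59.8% at a ratio of 1 or more 82.7% and 84.2% at 4 or more, and 77.4% and 83.3% at 5 or more.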

How the data were processed

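RNA was sequenced from pooled sorted cells, 1 library per group. The SMARTer Ultra Low kit was used for the libraries, per the labels' protocols. Per the submitters' processing notes, TopHat2 2.0.9, Bowtie2 2.1.0, SAMtools 0.1.18 and Cufflinks 2.1.1 were used on build mm10. The authors deposited FPKM values and, in a second table, normalized counts, treated here as a signal because they are not whole numbers. Of values below 2000 times the smallest step of a library, 99.0% to 99.6% were whole multiples of it (tolerance 0.05 steps), and dividing by it gave implied fragments, used only for exact Poisson 95% intervals and no count test. The step search returned the known step for simulated whole counts, which cannot show that the deposited values stem from whole counts. The data are unstranded as far as the sources used here tell, so overlapping and antisense genes cannot be told apart.

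Rows with date symbols, 27 of 23361, were left out. Ratios are log2((FPKM + 1) / (FPKM + 1)) of YFP-positive with VEGF-C over YFP-negative, which understates differences of low genes. Genes were called higher or lower at 2-fold, with no test. Folds in the text are ratios of FPKM, without the pseudocount. Of the symbols kept, 21660 (92.8%) matched GENCODE M21, used for identifiers and positions. The members, the 53 gene lists and the naming rule were chosen with earlier results of these data known. No mitochondrion-encoded gene of the lists was found in the table. Named genes were the 12 per direction with the most extreme ratios above 0, and at 1 FPKM or more, in both libraries, the 10 most abundant of each library, the 10 per direction furthest apart in both pairs, the leading or most extreme members of each list, and the VEGF, connexin and sex-linked genes. A few genes that the rule names are not reported here. Further list members are named for contrast and were chosen after their values were seen. Promoter sequences are from RefSeq, and the last 40 bases of each of the 7 windows shown were found in a GENCODE transcript of its gene. Alternatives changed the pseudocount, the filter, the scaling, the depth, the table and the fold. Analyses used Python 3.11.15, numpy 2.4.6, pandas 2.3.3, scipy 1.17.1 and matplotlib 3.10.9.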

Additional observations from a re-analysis of the deposited data

Results flagged for a closer look

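Some genes and lists stood on opposite sides in this pair and in the gene-poor pair, where VEGF-C was on the YFP-negative side. These differences were not tested. Gpr37l1, a glial receptor gene, had a log2 ratio of 5.75 here and -1.57 in the gene-poor pair. Umps, an enzyme of pyrimidine synthesis, had 5.31 here and -2.20 there. Gpr37l1 rested on 1 fragment and Umps on 11 fragments in the YFP-negative library. The median of mural cell and fibroblast genes was -1.65 here, over 6 genes, and 1.60 in the gene-poor pair, over 2. The median of blood genes was -2.37 here, over 9 genes, and 1.38 there, over 5.

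Rows whose symbols had turned into dates were left out of every comparison but carried signal. They held 0.296% of normalized counts in the treated YFP-positive library and 0.317% in the YFP-negative library.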

How the results depend on the processing

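The main counts were 3264 genes higher, 3141 lower and 2332 of these past 2-fold on the same side in the gene-poor pair. In the same order they were 1605, 1622 and 1278 with a pseudocount of 5 FPKM, 1602, 1562 and 678 among genes of at least 1 FPKM in both libraries, 575, 562 and 537 at a mean of at least 20 FPKM, and 1313, 1349 and 869 at 4-fold. Among genes above 0 in both libraries, a choice made after seeing the data, they were 2556, 2548 and 1509. For the third count each filter was applied to the gene-poor pair as well, so it is no share of the first 2 counts. The 1509 genes were above 0 in all 4 libraries, where 1403 were higher and 1339 lower here. The 678 genes likewise reached 1 FPKM in all 4 libraries. The counts stayed within 1.5 times the main value with a pseudocount of 0.1 FPKM (3567 higher, 3435 lower), after thinning to equal depth (3252 and 3137), with upper-quartile scaling (3292 and 3116), after re-centring (3115 and 3246), with the normalized counts (3133 and 2987), and, also chosen after seeing the data, with at least 10 fragments in the higher library (3248 and 3119). The median of mature neuron genes turned to -0.0457 among genes of at least 1 FPKM in both libraries and at a mean of at least 20 FPKM. The median of sex-linked genes turned to 1.27 among genes of at least 1 FPKM in both and to 0.32 among genes above 0 in both. Medians under 1 in size also changed sign, among them those of connexins (-1.89 among genes of at least 1 FPKM in both), endothelium (-0.84 there), DNA replication (-0.20 at a mean of at least 20 FPKM) and immediate early genes (-0.05 there). These settings keep fewer genes by construction. Of 52 lists, 23 had a median past 1 on either side, and 8 stayed past 1 in every setting at 2-fold. No paired analysis was possible because each group has 1 library, and no replicate could be left out. Depth bounds the counting error only, and the spread between cultures is unknown.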

Other observations

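A few further genes were far apart. Npy, the neuropeptide Y gene, stood at 88.7 FPKM with YFP and VEGF-C and was listed at 0 in the YFP-negative library. Both YFP-positive libraries held it, with 119 FPKM in the one without VEGF-C. Prl, the prolactin gene of the pituitary, was listed at 0 with YFP and VEGF-C and stood at 103 FPKM in the YFP-negative library, from 1570 fragments. In the treated YFP-negative library it was at 0.179 FPKM. Rn45s, the ribosomal RNA precursor, was listed at 0 with YFP and VEGF-C and stood at 2613 FPKM in the YFP-negative library, 7374 FPKM in untreated YFP-positive cells and 2933 FPKM in treated YFP-negative cells. A listed 0 can be a failed estimate, so no direction is read from it.

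Long noncoding RNAs leaned to the YFP-negative library. Of 109 genes annotated as lincRNA, 60 were at least 2-fold lower with YFP and VEGF-C and 24 higher, with a median log2 ratio of -1.15. For 11025 protein-coding genes the counts were 2769 lower and 2972 higher. The median length of the longest transcript was 3319 bases for higher genes, 3489 for genes within 2-fold and 3158 for lower genes. Of the genes listed at 0 in the YFP-negative library, 72 reached 10 FPKM with YFP and VEGF-C, and of those listed at 0 with YFP and VEGF-C, 71 reached 10 FPKM in the YFP-negative library, each counted from at least 10 fragments.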
